A study of Homo sapiens with 6 samples.

Results

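The mRNAs of mitochondrial ribosomal proteins were examined in RNA that came down with anti-FLAG antibody from HEK293T cells held in prometaphase. Targets of the array whose symbol is MRPL or MRPS followed by a digit were taken, and the pseudogene MRPL42P5 was left out. This gave 76 of the 37879 targets, 49 for proteins of the large subunit, 26 for proteins of the small subunit and MRPS36, now named KGD4, which is not a core ribosome protein. The other 75 symbols are current RefSeq symbols. The name MRPS does not settle the subunit, since MRPS18A and MRPS30 are large subunit proteins.

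HEK293T cells are a human line of embryonic kidney origin. The 3 control IPs came from cells given an empty vector, and the 3 Stau1 IPs from cells given a plasmid for a FLAG-tagged isoform of Stau1 (Stau155-FLAG). By the labels all cells were kept in nocodazole, at 50 ng/ml over 15 h, and the same antibody served for every IP. For HEK293T cells the paper's methods give the same dose over a longer time. Stau1 is a protein that binds double-stranded RNA, and nocodazole blocks the assembly of microtubules. The tagged protein was expressed from a plasmid in a line that also holds its own Stau1, and the control IP measures RNA that stays on the antibody gel without the tag. Each IP was read on 1 Illumina array. The comparison asks which mRNAs are more abundant in the Stau1 IPs than in the control IPs. Total RNA of the cells was not analysed here, so a difference in IP recovery and a difference in cellular level cannot be told apart from these IPs alone. The paper also compared total RNA of prometaphase cells given either plasmid, and reports that only a few probes changed more than 2-fold. The labels do not say whether replicates came from separate cultures, so p-values measure the spread between these arrays only.

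Mitochondrial ribosomes translate the few proteins that mitochondrial DNA encodes, all of them membrane subunits of the respiratory chain and ATP synthase. Their RNAs are mitochondrial, but all of their proteins are made in the cytosol from nuclear genes and imported. Some have a counterpart in bacterial ribosomes and others are found only in mitochondria. By a classification from general knowledge, 47 of the 76 targets belong to the first kind and 28 to the second.

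Single arrays stood apart from their labels. Over 9884 targets detected on all 6 arrays (detection p under 0.05), Pearson's r was 0.995 between Stau1 IP 1 and Stau1 IP 3, but 0.937 and 0.939 between Stau1 IP 2 and these. The array labelled control IP 2 correlated at 0.982 and 0.983 with Stau1 IP 1 and 3, above its 0.975 and 0.980 with control IP 1 and 3. The target STAU1, detected on 5 arrays, did not check the labels, with signals of 2499, 3246 and 2758 in control IPs 1, 2 and 3 and 2845, 1857 and 3130 in Stau1 IPs 1, 2 and 3. Whether its probe reads the plasmid transcript is not known here. KRT8, KRT18, VIM and LIN28B were detected on all 6 arrays, as were CCNB1, CDC20, PLK1 and AURKA, genes of mitosis. On arrays 1 and 3 alone CCNB1 fell by 1.02 on the log2 scale (adjusted p = 0.0193 from limma), and KRT8 had -1.003 and PLK1 -0.60 (adjusted p = 0.0513 and 0.0645 from limma). There KRT18, VIM and AURKA had -0.35, -0.13 and -0.01, CDC20 and LIN28B had 0.24 and 0.43, and none of these passed. By the labels CCNB1 had -0.53 (adjusted p = 0.707 from limma). The part of these genes in the lower values of the ribosomal proteins was not tested. PTPRC and ALB, markers of blood and liver, were detected on none, while the muscle gene ACTA1 was detected on all 6 at 117 to 154. Whether the labels of control IP 2 and Stau1 IP 2 were exchanged was not tested, and every value by the labels rests on them as given. The main results are therefore given with all arrays by their labels and without both arrays numbered 2, which were never moved to the other group. The second comparison is 2 against 2 arrays, and the arrays to leave out were chosen from these same data.

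Between 74 and 76 of the mitochondrial ribosomal protein targets were detected on each array. All 6 arrays detected 72 of them, and MRPL27, MRPL39, MRPL44 and MRPS18C missed the detection threshold on 1 or 2 arrays. The median signal of the 76 targets was 1684, 1944 and 1798 in control IPs 1, 2 and 3 and 1540, 1947 and 1625 in Stau1 IPs 1, 2 and 3. Mean signals ran from 133 for MRPS36, 182 for MRPS14, 201 for MRPL19, 284 for MRPL1 and 329 for MRPL47 to 6340 for MRPL51, 6637 for MRPS21, 6876 for MRPS16, 17388 for MRPL37 and 17796 for MRPS15. These values depend on the probes, so they do not rank the transcripts. All later values on the log2 scale were corrected for background with an offset of 16 and quantile normalized, and a difference is always Stau1 IP minus control IP.

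The mitochondrial ribosomal protein targets were mostly lower in Stau1 IP 1 and 3 but not in Stau1 IP 2, and a few stood far above the rest. Taken against the mean of control IP 1 and 3, the median log2 value of the 76 targets was -0.41 on Stau1 IP 1. It was 0.002 on Stau1 IP 2 and -0.47 on Stau1 IP 3, against -0.21 on control IP 2. By the labels the log2 difference was below 0 for 58 of 76 targets, with a median of -0.24 and quartiles of -0.41 and -0.03. Over the 9884 detected targets, 50.1% were below 0 and the median was -0.0006. With the arrays numbered 2 left out, 63 of the 76 were below 0 and the median was -0.46, against 56.0% and -0.08 over the detected targets. MRPS16, MRPL49, MRPL30, MRPS25 and MRPS12 were at the upper end and MRPL1, MRPS33, MRPL33, MRPL13 and MRPL35 at the lower.

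**Figure D1:**
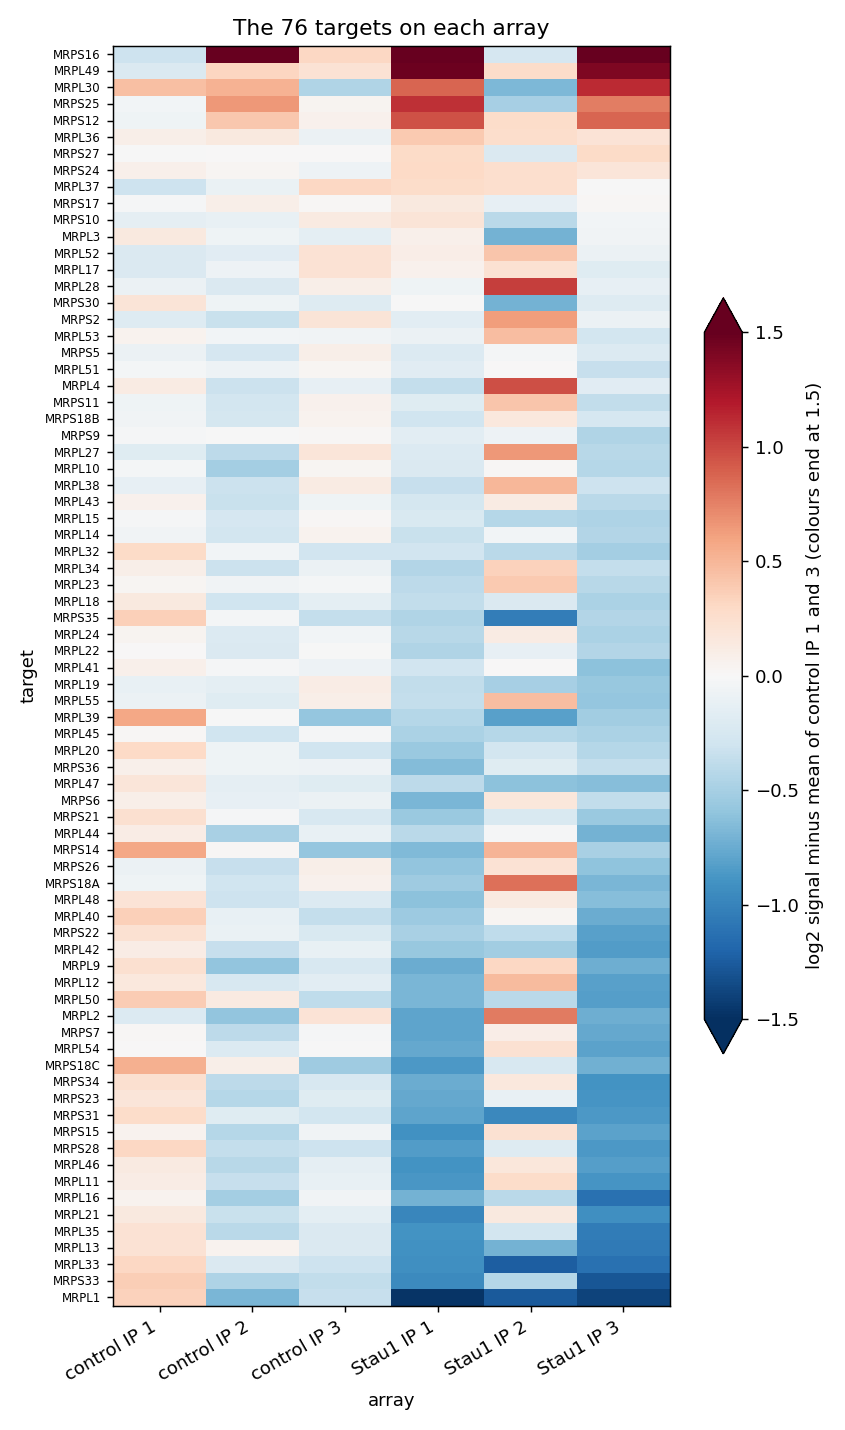
Each row is 1 of the 76 targets and each column 1 array, and the colour gives the log2 signal minus the mean of control IP 1 and 3, with the scale ending at 1.5 in both directions. Rows are ordered by the difference without the arrays numbered 2. The columns Stau1 IP 1 and Stau1 IP 3 look alike, with most rows below 0 and 5 clearly above, while Stau1 IP 2 has its own pattern and control IP 2 lies between.

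By limma on the arrays as labelled, 0 of the 76 targets were enriched and 0 depleted at a fold above 2.5 with an unadjusted p under 0.05, where 0.0264% and 0.0343% of all targets were called, and 0.0708% and 0.0911% of those detected on all 6 arrays. At a Benjamini-Hochberg adjusted p under 0.05, limma called 0 of 76 (0% of all targets in either direction, and 0% of those detected on all 6 arrays), and the methods' t-test also called 0. An unadjusted p under 0.05 was reached by 4 higher targets (5.26%, against 4.38% of all targets and 10.5% of those detected on all 6 arrays) and by 15 lower ones (19.7%, against 5.15% and 12.1%). The lowest adjusted p among the 76 was 0.203, for MRPL13. The 3 Stau1 IP arrays lay apart above the 3 control IP arrays for 2 targets (2.63%, against 6.71% of all targets and 10.2% of those detected) and below them for 13 (17.1%, against 7.80% and 12.7%).

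Without the arrays numbered 2, MRPS16 and MRPL49 were enriched and MRPL1 was depleted at a fold above 2.5 with an unadjusted p under 0.05 from limma (1.20% and 0.282% of all targets were called, and 3.21% and 0.850% of those detected on all 6 arrays). Under the methods' t-test, or under their transformation and robust spline as rebuilt here, 2 targets were enriched and 0 depleted. At an unadjusted p under 0.05 from limma, 6 were higher (7.89%, against 8.99% of all targets and 21.4% of those detected) and 46 lower (60.5%, against 9.91% and 27.1%). At an adjusted p under 0.05 from limma, 4 targets rose (5.26%, against 3.47% of all targets and 9.30% of those detected) and 13 fell (17.1%, against 2.75% and 8.81%). The 2 Stau1 IP arrays lay above both control IP arrays for 9 targets (11.8%, against 21.6% of all targets and 29.5% of those detected) and below both for 56 (73.7%, against 24.7% and 39.0%). The calls at an adjusted p rest on the likeness of Stau1 IP 1 and 3: without either of them limma called 0 higher and 0 lower, and without control IP 3 it called 4 and 39. The methods' t-test called 0 in either direction at an adjusted p. Under a robust spline in place of quantile normalization the split was 4 higher and 6 lower, and with no normalization between arrays it was 4 and 5. Limma's own background estimate gave 1 higher, MRPS27, and 4 lower.

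**Figure D2:**
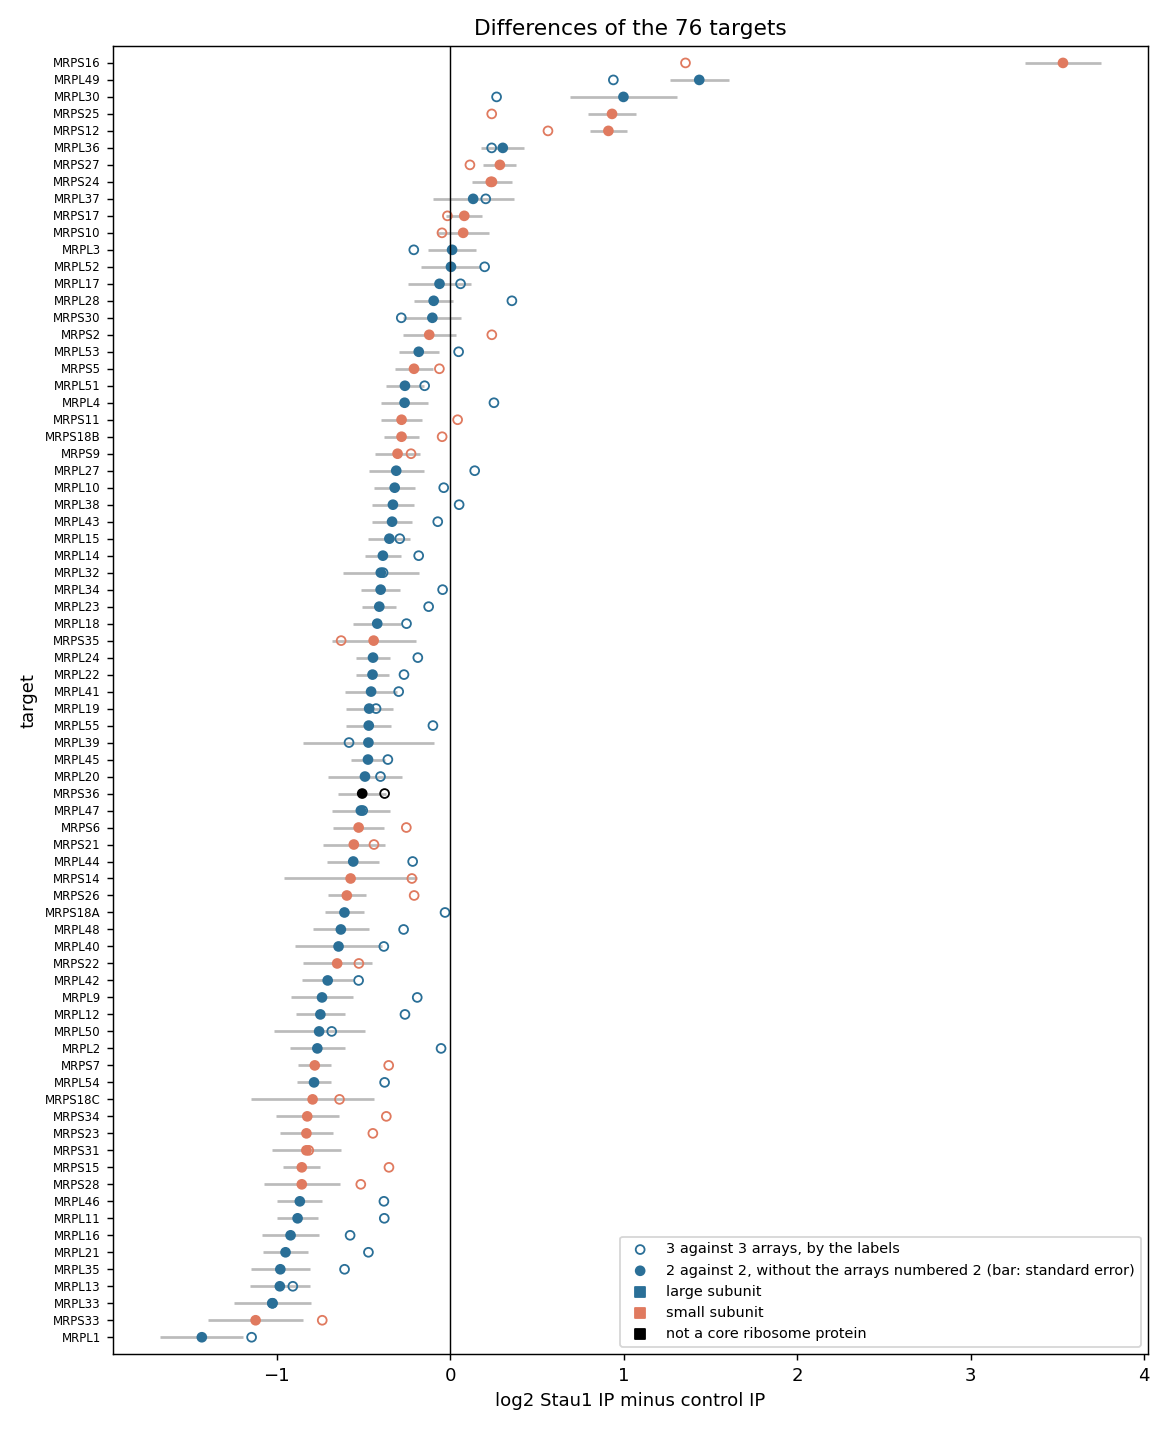
Log2 difference between Stau1 IP and control IP for each of the 76 targets, with open circles for 3 against 3 arrays by the labels and filled circles with standard errors for 2 against 2 arrays without those numbered 2. MRPS16 reached 3.53 and MRPL49 1.44 without the arrays numbered 2, MRPL1 lay at -1.43, and 63 of the filled circles lie below 0.

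MRPS16 on chromosome 10 encodes a small subunit protein with a counterpart in bacteria, and inherited defects in it cause a combined respiratory chain deficiency. It had the largest difference of the 76. It was singled out because the study lists it among its enriched transcripts, and since that list was made from these same arrays, its direction here is not independent evidence. The supplementary annotation of the array gives its 50-base probe, of which bases 11 to 40 are printed here, 5′ to 3′, because this probe carries the largest change among the 76 targets. Capitals mark bases 18 to 36, whose letters are typical of Alu elements, the most frequent interspersed repeat of primate genomes, by general knowledge and not by a repeat annotation.
MRPS16 probe: gcagtaaGATCACTTGAGCCCAGGAGgccg
What the probe captured beyond the MRPS16 mRNA was not tested.

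The signal of MRPS16 was 997, 9489 and 1605 in control IPs 1, 2 and 3, and 13858, 1007 and 14299 in Stau1 IPs 1, 2 and 3. Between beads the standard error was 36.7, 229 and 58.0 in the control IPs, against 534, 23.7 and 267 in the Stau1 IPs. The arrays thus fell into a high set of control IP 2, Stau1 IP 1 and Stau1 IP 3 and a low set of the other 3. By the labels the groups overlapped, the log2 level being 11.26 ± 1.61 (SD, n = 3) for the controls against 12.62 ± 2.18 (SD, n = 3) with Stau1. The log2 difference was 1.36, its 95% confidence interval reached from -1.78 up to 4.49, and limma gave an adjusted p of 0.865. A two-sided exact permutation test returned p = 0.3, where 3 against 3 arrays cannot go below 0.1. Without the arrays numbered 2 the difference was 3.53, an 11.6-fold higher level in the Stau1 IPs (95% confidence interval 2.97 to 4.09 on the log2 scale, adjusted p = 0.00625 from limma). For MRPS16 without the arrays numbered 2 under limma's own background estimate (neqc), it was 4.34 and the adjusted p from limma was 0.0723, and without Stau1 IP 1 or 3 the adjusted p was 0.190 or 0.192.

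MRPL49 on chromosome 11 encodes a large subunit protein found only in mitochondria. Its signal was 790, 1432 and 1119 in control IPs 1, 2 and 3, and 2731, 1071 and 2855 in Stau1 IPs 1, 2 and 3. Stau1 IP 1 and 3 were the 2 highest arrays, and Stau1 IP 2 lay among the controls. By the labels the log2 difference was 0.94 (standard error 0.35, adjusted p = 0.471 from limma). On arrays 1 and 3 alone it was 1.44, a fold of 2.71 (standard error 0.17, adjusted p = 0.0179 from limma).

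MRPS12 on chromosome 19 is the counterpart of the bacterial protein S12, which lies at the decoding site of the small subunit. Its signal was 1186, 1992 and 1384 in control IPs 1, 2 and 3, and 2612, 1535 and 2731 in Stau1 IPs 1, 2 and 3. As for MRPL49, Stau1 IP 1 and 3 were highest, and control IP 2 came next. The log2 difference was 0.56 (standard error 0.22, adjusted p = 0.493 from limma) by the labels. It was 0.91, a fold of 1.88, without the arrays numbered 2 (standard error 0.11, adjusted p = 0.0175 from limma).

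MRPS25 on chromosome 3, a small subunit protein found only in mitochondria, had signals of 367, 711 and 408 in control IPs 1, 2 and 3, and 872, 261 and 775 in Stau1 IPs 1, 2 and 3. The array labelled control IP 2 lay near Stau1 IP 1 and 3, and Stau1 IP 2 was the lowest of all. The log2 difference was 0.24 (standard error 0.44, adjusted p = 0.947 from limma) by the labels and 0.93 (standard error 0.14, adjusted p = 0.0295 from limma) without the arrays numbered 2. MRPS25 without the arrays numbered 2 did not pass under neqc, where the difference was 0.38, with an offset of 50 (adjusted p = 0.0542 from limma) or with the replicate block (adjusted p = 0.0503 from limma).

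MRPL30 on chromosome 2, a large subunit protein with a counterpart in bacteria, had signals of 535, 721 and 339 in control IPs 1, 2 and 3, and 832, 257 and 1056 in Stau1 IPs 1, 2 and 3. Stau1 IP 1 and 3 were again the 2 highest arrays and Stau1 IP 2 the lowest, but control IP 1 and 3 differed by 0.90 on the log2 scale. The difference without the arrays numbered 2 was 1.00 (standard error 0.31) and did not pass (adjusted p = 0.157 from limma). By the labels it was 0.27 (standard error 0.53, adjusted p = 0.952 from limma).

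**Figure D3:**
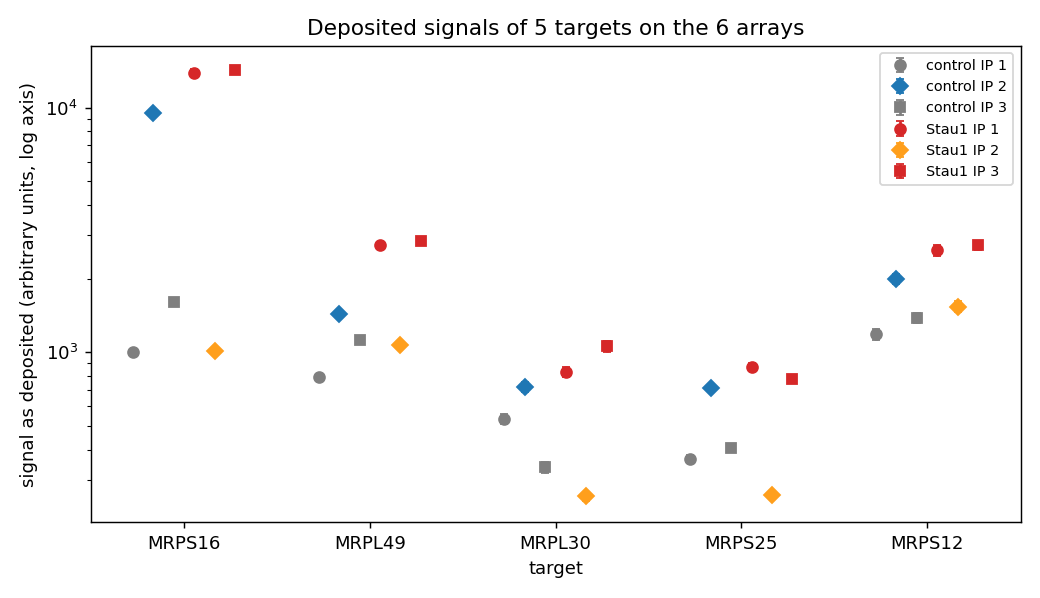
Deposited signal, on a log axis, of the 5 targets with the largest positive difference without the arrays numbered 2, with the standard error between beads as bars. For all 5, Stau1 IP 1 and 3 are the 2 highest arrays and control IP 2, the blue diamond, is the third, while Stau1 IP 2, the orange diamond, lies at or below the level of control IP 2.

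On the normalized log2 scale, MRPL36 and MRPS24 were the 2 targets with all Stau1 IP arrays above all control IP arrays. MRPL36 is a large subunit protein with a bacterial counterpart, and MRPS24 is a small subunit protein. The deposited signals of MRPL36 overlapped, with 2430 in control IP 2 and 2316 in Stau1 IP 2. MRPS24 had signals of 3686, 4147 and 3400 in control IPs and 4381, 4379 and 4487 in Stau1 IPs. The differences were small, at 0.23 (standard error 0.08, adjusted p = 0.406 from limma) for MRPS24 and 0.24 (standard error 0.09, adjusted p = 0.507 from limma) for MRPL36 on the log2 scale by the labels. MRPS27, a small subunit protein found only in mitochondria, had 0.11 by the labels and 0.29 without the arrays numbered 2, where its adjusted p from limma was 0.185.

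At the lower end, MRPL1, MRPL33, MRPL13 and MRPS31 were among the 13 targets with all Stau1 IP arrays below all control IP arrays. MRPL1 on chromosome 4, the counterpart of the bacterial protein L1, had signals of 452, 327 and 322 in control IPs 1, 2 and 3, and 201, 176 and 225 in Stau1 IPs 1, 2 and 3. The log2 difference was -1.14 (standard error 0.26, adjusted p = 0.250 from limma) by the labels. It was -1.43, 2.70-fold lower in the Stau1 IPs, without the arrays numbered 2 (standard error 0.24, adjusted p = 0.0369 from limma). The size depended on the background correction, being -0.18 by the labels under neqc, and MRPL1 without the arrays numbered 2 had -0.24 there and did not pass (adjusted p = 0.382 from limma).

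MRPL33 on chromosome 2, a small protein of the large subunit with a bacterial counterpart, had signals of 7628, 5804 and 4860 in control IPs 1, 2 and 3 and 3265, 2540 and 3148 in Stau1 IPs 1, 2 and 3. The groups did not overlap and Stau1 IP 2 was the lowest array. The log2 difference was -1.02 in both comparisons, with an adjusted p from limma of 0.209 by the labels and 0.0699 without the arrays numbered 2.

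MRPL13 on chromosome 8, the counterpart of the bacterial protein L13, had signals of 2196, 2346 and 1709 in control IPs 1, 2 and 3 and 1191, 1151 and 1181 in Stau1 IPs 1, 2 and 3. The 3 Stau1 IP arrays lay close together and below every control. The log2 difference was -0.91 by the labels (standard error 0.15, adjusted p = 0.203 from limma) and -0.98 without the arrays numbered 2 (standard error 0.17, adjusted p = 0.0426 from limma). MRPS31 and MRPS33, small subunit proteins found only in mitochondria, had -0.81 and -0.74 by the labels and -0.83 and -1.12 without the arrays numbered 2, and neither passed (adjusted p = 0.0868 and 0.0905 from limma without those arrays).

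The other 11 targets that fell without the arrays numbered 2 were MRPL11, MRPL16, MRPL21, MRPL35, MRPL46, MRPL54, MRPS7, MRPS15, MRPS18A, MRPS23 and MRPS26, with log2 differences from -0.98 for MRPL35 to -0.59 for MRPS26. By the labels the differences of these 11 ran from -0.61 for MRPL35 to -0.21 for MRPS26 and -0.03 for MRPS18A, and 0 passed at an adjusted p from limma (0.536, 0.906 and 0.994 for these 3). Of the 13 in all, 9 are large subunit and 4 small subunit proteins, against 49 and 26 among the 76 targets. MRPL11 is the counterpart of the bacterial protein at the base of the ribosomal stalk, where translation factors bind. It had signals of 2667, 2323 and 2381 in control IPs 1, 2 and 3 and 1526, 3166 and 1660 in Stau1 IPs 1, 2 and 3. Here Stau1 IP 2 was the highest array, so that the difference was -0.38 (standard error 0.34, adjusted p = 0.852 from limma) by the labels and -0.88 (standard error 0.12, adjusted p = 0.0236 from limma) without the arrays numbered 2.

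MRPS15 had the same order, with 23075, 16317 and 19365 in control IPs 1, 2 and 3 and 10168, 25947 and 11906 in Stau1 IPs 1, 2 and 3. Over the 17 targets that passed at an adjusted p without the arrays numbered 2, Stau1 IP 2 was nearer to the mean of control IP 1 and 3 than to that of Stau1 IP 1 and 3 for 15, and control IP 2 was nearer to Stau1 IP 1 and 3 for 7. These 17 were picked on arrays 1 and 3, and the shares over all called targets were not computed, so the counts only describe them. Over all 76 targets these counts were 55 (72.4%, against 60.0% of targets detected on all 6 arrays) and 30 (39.5%, against 48.4%). Stau1 IP 2 thus lay with the controls for most of the 76, as it did for 60.0% of the detected targets, and control IP 2 lay with them for 46 of 76. Whether either share is particular to these targets was not tested. For MRPS16 control IP 2 lay 2.75 above the mean of control IP 1 and 3 on the log2 scale.

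Stau1 IP 2 also carried values seen on no other array. It was the highest array for 27 of the 76 targets (35.5%, against 32.1% of the targets detected on all 6 arrays) and the lowest for 11 (14.5%, against 23.1%), so the first share was near that of the detected targets. Control IP 1 was the highest for 31 (40.8%, against 22.1%), control IP 2 for 0 (0%, against 6.73%), and Stau1 IP 3 was the lowest for 34 (44.7%, against 18.6%). MRPL28, which has a bacterial counterpart in the large subunit, had a signal of 3128 on Stau1 IP 2 and between 1359 and 1640 on the other 5 arrays. MRPL2, MRPL4 and MRPS18A showed the same, with Stau1 IP 2 above the mean of the other arrays by 1.21, 1.13 and 1.13 on the log2 scale, and 1.12 for MRPL28. These 4 are set together because of that array, a choice made after their values were seen. MRPS2, the counterpart of the bacterial protein S2, had 6978 on Stau1 IP 2 and between 3657 and 4854 elsewhere. By the labels these high values gave log2 differences of 0.36 for MRPL28, 0.25 for MRPL4 and 0.24 for MRPS2, which turned to -0.09, -0.26 and -0.12 without the arrays numbered 2. MRPL9, which with MRPS16, MRPL1, MRPS25 and MRPL2 had the widest gap between control IP 2 and the other controls, had -0.19 and -0.74.

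The medians were close to each other between the subunits and between proteins of either origin. By the labels the median log2 difference was -0.25 for the large subunit (38 of 49 below 0) and -0.22 for the small subunit (19 of 26 below 0). On arrays 1 and 3 alone it was -0.46 (43 of 49) and -0.48 (19 of 26). The targets with a bacterial counterpart had -0.21 by the labels and -0.42 without the arrays numbered 2, and those found only in mitochondria had -0.29 and -0.47. The differences between these medians were not tested. At an adjusted p from limma without the arrays numbered 2, 1 large subunit target rose (2.04%) and 9 fell (18.4%). Of the small subunit targets 3 rose (11.5%) and 4 fell (15.4%). Over all targets the shares were 3.47% and 2.75%, and over those detected on all 6 arrays 9.30% and 8.81%. The split between the subunits was not tested.

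Other genes of mitochondrial translation were taken from a list of 27 targets, of which 22 were detected on all 6 arrays. By the labels 0 passed at a fold above 2.5 with an unadjusted p under 0.05 from limma. On arrays 1 and 3 alone, 0 rose (0%) and 3 fell (11.1%) at an adjusted p from limma. Of all targets 3.47% rose and 2.75% fell, and of those detected on all 6 arrays 9.30% and 8.81%. GADD45GIP1, a large subunit protein without the MRPL name, had signals of 312, 241 and 289 in control IPs 1, 2 and 3 and 171, 474 and 193 in Stau1 IPs 1, 2 and 3. Its log2 difference was -1.36 (standard error 0.13, adjusted p = 0.0129 from limma) without the arrays numbered 2 and -0.28 by the labels. MRRF, the recycling factor, had -0.66 (adjusted p = 0.0470 from limma) on arrays 1 and 3 and -0.23 (adjusted p = 0.905) by the labels. TFB1M, which methylates the small ribosomal RNA, had -0.91 (adjusted p = 0.0301 from limma) on arrays 1 and 3 and -0.59 (adjusted p = 0.471) by the labels. The 6 ribosome proteins with other symbols were all below 0 in both comparisons, though PTCD3 was detected on no array. Among the 11 assembly genes 9 were above 0 in both comparisons, with medians of 0.24 and 0.23. ERAL1, a GTPase that binds the small ribosomal RNA, had signals of 2872, 3992 and 3500 in control IPs 1, 2 and 3 and 4573, 4537 and 5399 in Stau1 IPs 1, 2 and 3. Its groups did not overlap, and its log2 difference of 0.48 by the labels and 0.56 without the arrays numbered 2 did not pass at an adjusted p (0.0659 from limma in the second). DDX28, a helicase of large subunit assembly, had 0.60 and 0.83 and likewise missed the threshold (limma adjusted p = 0.0617 in the second).

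The 2 nearest gene groups also lay below 0. The 87 targets for cytosolic ribosomal proteins had a median of -0.14 by the labels and -0.16 without the arrays numbered 2. There 3 rose (3.45%) and 8 fell (9.20%) at an adjusted p from limma. Over all targets 3.47% rose and 2.75% fell, and over those detected on all 6 arrays 9.30% and 8.81%. The 75 targets for respiratory chain and ATP synthase subunits had -0.17 and -0.31, and 3 rose (4%) and 12 fell (16%) without the arrays numbered 2. By the labels 72.4% and 74.7% of these 2 lists were below 0, against 76.3% of the mitochondrial ribosomal proteins. Without the arrays numbered 2 the shares were 73.6% and 74.7%, against 82.9%. The differences between these lists and the mitochondrial ribosomal proteins were not tested.

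**Figure D4:**
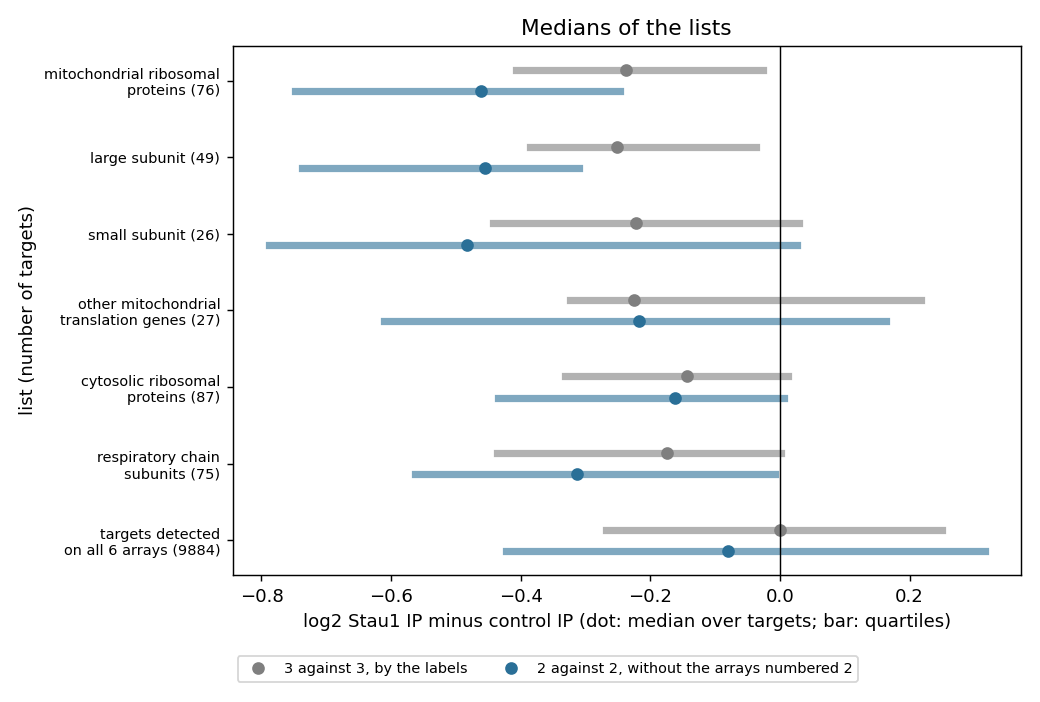
Median (dot) and quartiles (bar) over targets of the log2 difference between Stau1 IP and control IP, in grey for 3 against 3 arrays by the labels and in blue for 2 against 2 arrays without those numbered 2, with the number of targets in brackets. The mitochondrial ribosomal proteins have a median of -0.24 and -0.46, and both subunits lie at similar values, while the 9884 targets detected on all 6 arrays have medians near 0.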

How the data were processed

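RNA of 6 IPs was measured on Illumina HumanWG-6 BeadChips. Per the file headers, the deposited signal intensity, its standard error between beads and the bead number (median 41 per target) were written by BeadStudio with no normalization, the probes of a target combined. The deposited detection p-value places a target among the array's negative controls, and 11635 to 13054 targets were detected per array at 0.05. Bright targets can miss that threshold. The number of arrays limits the precision.

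From these intensities, the mean and SD of the negative controls were read per array as the median signal of the 200 targets nearest a detection p of 0.5 and 0.16. Signals were corrected by normexp, given an offset of 16, quantile normalized and put on the log2 scale. The transformation and robust spline of the methods were rebuilt only as an alternative, because the methods leave details open. Groups came from the sample titles. lmFit and eBayes of limma 3.58.1 (R 4.3.3, with mgcv 1.9.3 for the spline) were run over all 37879 targets, with Benjamini-Hochberg adjustment over all of them, and at the methods' fold of 2.5 with p under 0.05. The fits without the arrays numbered 2 used the same values with 2 residual degrees of freedom before moderation. The steps were tested on simulated arrays. These had independent noise with a capped spread and no array set apart, unlike the data, so they cannot vouch for the calls. Python 3.11.15 with matplotlib 3.10.9 drew the figures.

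The members, lists and tests were chosen with earlier results of these data known. Named members were MRPS16, the 8 highest and 5 lowest of the members detected on all 6 arrays in each comparison, the 5 with the highest and the 5 with the lowest mean signal, the 5 in which control IP 2 differed most from the other controls, and every called member. Alternatives were limma's neqc, no background correction, a robust spline, median centring, no normalization between arrays, the methods' chain as rebuilt, an offset of 50, filters on detection, eBayes with trend, the methods' t-test, the replicate number as a block, a 2-fold threshold and leaving out each array. Total RNA and genome coordinates were not used here.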

Additional observations from a re-analysis of the deposited data

How the results depend on the processing

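By the labels, 0 members were enriched and 0 depleted under every setting that kept all arrays, except that at a fold of 2 in place of 2.5 the number depleted was 2. Leaving out single arrays gave 0 to 2 enriched, the 2 without Stau1 IP 2, and 0 to 1 depleted, the 1 without control IP 2. Without both arrays numbered 2 the counts were 2 and 1, the median of the members moved from -0.24 to -0.46 and MRPS16 moved from 1.36 to 3.53. There 1 of the 27 other mitochondrial translation genes was depleted at a fold above 2.5 with p under 0.05 from limma. Of the 87 cytosolic ribosomal targets 1 was depleted, and of the 75 respiratory chain targets 2 were enriched. Over all targets 1.20% were enriched and 0.282% depleted, and over those detected on all 6 arrays 3.21% and 0.850%. Leaving out single arrays instead gave 0 to 1 called among the cytosolic ribosomal and respiratory chain targets. Under the other settings the median of the members stayed between -0.40 and -0.12.

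With both arrays numbered 2 left out, the number enriched was 2 under every setting. The number depleted, 1, was 0 under neqc, no background correction, the robust spline, median centring, no normalization between arrays, the variance stabilizing transformation with robust spline, an offset of 50 and the methods' t-test, and leaving out single arrays gave 0 to 4, the 4 without control IP 3. At an adjusted p from limma, the number higher, 4, was 1 under neqc, where MRPS27 passed and none of the 4 did, 0 under the methods' t-test, and 0 to 5 with single arrays left out. The number lower, 13, was 4 under neqc, 25 without background correction, 6 with the robust spline, 8 with median centring, 5 with no normalization between arrays, 22 and 23 with targets detected on at least 3 or on all 6 arrays, and 0 under the methods' t-test. It was 0 without Stau1 IP 1 or 3, 20 without control IP 1 and 39 without control IP 3. A lone array was then assumed to vary like the other group. With no normalization between arrays the median over targets detected on all 6 arrays was 0.15 in place of -0.08. For neqc the cause was not tested. MRPS16 without the arrays numbered 2 did not pass under neqc (4.34) or the methods' t-test (3.53). Leaving out single arrays gave 3.23 to 3.84, and it did not pass without Stau1 IP 1 (3.46) or 3 (3.60).

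The replicate block left 0 enriched and 0 depleted by the labels. On arrays 1 and 3 it gave 3 higher and 12 lower at an adjusted p from limma, where MRPS25, MRPL46, MRPS18A and MRPS26 no longer passed. Taken against its group mean, each array correlated with the array of the same number at -0.409, -0.741 and -0.387. With the arrays numbered 2 apart from their groups, these values cannot show whether the numbers pair the arrays, and no pairing was assumed.

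Among named members by the labels, MRPL28, MRPL4 and MRPS2 turned to -0.094, -0.26 and -0.12 without both arrays numbered 2. MRPL2 turned to 0.035 and MRPS18A to 0.054 with no normalization between arrays, and MRPS18A to 0.046 under neqc and 0.012 with median centring. Leaving out single arrays moved MRPL2 between -0.57 and 0.22, MRPL28 between -0.021 and 0.56, MRPL30 between -0.071 and 0.82, MRPL4 between -0.16 and 0.50, MRPL9 between -0.54 and 0.029, MRPS14 between -0.58 and 0.069, MRPS18A between -0.51 and 0.25, MRPS2 between -0.0087 and 0.39 and MRPS25 between -0.079 and 0.72.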
